A study of Mus musculus with 20 samples.

Results

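The genes of hepatic de novo lipogenesis and Slc13a5, the gene of the plasma membrane citrate transporter, were followed in 20 RNA-seq libraries of mouse liver. The 10 members were picked by symbol among 53028 gene rows and are Slc13a5, Srebf1, Mlxipl, Acly, Acaca, Fasn, Scd1, Elovl6, Me1 and Gpam. All 10 were matched to 1 Ensembl gene each, and all 10 passed the filter on low counts over the 20 libraries. Slc13a5 was included because its level in total RNA was already known to be lower with SNORA73 LNA once mice 9 and 10 are set aside, so its total RNA values are given as a description with no test.

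The animals were male C57BL/6J mice on chow, fed ad libitum. A locked nucleic acid (LNA) antisense oligonucleotide was injected intraperitoneally at 3 mg/kg, 3 times on alternate days from 8 weeks of age, and livers were taken 2 days after the last dose. The study's description of the liver polysome work gives the age as 10 weeks, so the age at collection is not settled. The control oligonucleotide targeted GFP, a sequence that these mice lack, and the other targeted the snoRNA SNORA73 (spelled Snora37 in the sample labels). Each group held 5 mice, and every mouse gave 1 library of total liver RNA and 1 of RNA from its polysome fractions, collected after a cycloheximide injection that holds ribosomes on the mRNA. The study names SNORA73-2 for its further work in vivo, while the labels of these libraries name no particular SNORA73 oligonucleotide.

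In the fed liver, citrate leaves the mitochondria and is cleaved to cytosolic acetyl-CoA, which is carboxylated to malonyl-CoA and built into palmitate. Palmitate is then elongated, desaturated and esterified to glycerol, while malic enzyme supplies part of the NADPH. The transcription factor SREBP-1c, from Srebf1, raises these enzymes in response to insulin, and ChREBP, from Mlxipl, does so in response to glucose. SLC13A5 imports citrate from the circulation with sodium and thereby adds to the same cytosolic pool.

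Total RNA libraries held 20005389 to 42023390 counts, and polysome libraries held 14852951 to 33824659. The SNORA73 LNA libraries were shallower, with medians of 22543046 against 31996106 in total RNA and 20084750 against 23851776 in polysome RNA. Hepatocyte markers summed to between 36864 and 72157 CPM (counts relative to the library total, scaled with TMM factors over all 20 libraries) in every library, whereas the 6 adipocyte markers summed to between 0.180 and 2.40 CPM. Mice 9 (GFP LNA) and 10 (SNORA73 LNA) stood apart from their groups, and values are given with and without them. The knockdown itself could not be read: Snora73a had at most 2 counts and Snora73b at most 4 in any library, and their host gene Snhg3 had 4.59 ± 0.503 CPM with GFP LNA and 4.91 ± 1.54 CPM with SNORA73 LNA in total RNA (SD, n = 5 mice each). A lower level in bulk liver RNA can reflect fewer cells of a type or less RNA per cell, and these libraries do not separate the former from the latter.

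The start regions of the members are shown because both lipogenic factors are known to act at promoters. RefSeq promoters of build GRCm38.p6 were matched for 9 of the 10 members and numbered 15, since some genes have more than 1 start. Each sequence below is the 250 bases before the start, 5′ to 3′ on the strand of the gene, with matches to the motifs in capitals. The motifs were CACGTG (E-box, the core of ChREBP elements), TCACNCCAC (core of the sterol response element bound by SREBP), CCAAT, TGACGTCA (cAMP response element), TNGCGTG (the core bound by the aryl hydrocarbon receptor) and GGGCGG (GC box), searched on both strands.
Slc13a5 promoter 1, chr11:72267162-72267411, minus strand: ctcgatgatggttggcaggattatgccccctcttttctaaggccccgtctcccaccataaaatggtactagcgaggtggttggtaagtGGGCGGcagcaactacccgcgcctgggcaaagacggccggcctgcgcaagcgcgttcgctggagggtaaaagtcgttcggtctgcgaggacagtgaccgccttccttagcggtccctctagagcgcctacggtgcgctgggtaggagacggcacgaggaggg
Slc13a5 promoter 2, chr11:72266605-72266854, minus strand: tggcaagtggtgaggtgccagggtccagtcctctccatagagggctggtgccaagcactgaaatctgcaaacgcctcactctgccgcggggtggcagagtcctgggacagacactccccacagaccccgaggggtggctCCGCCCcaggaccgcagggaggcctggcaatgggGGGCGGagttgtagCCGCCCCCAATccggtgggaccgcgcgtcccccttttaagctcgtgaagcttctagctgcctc
Fasn promoter 1, chr11:120824548-120824797, minus strand: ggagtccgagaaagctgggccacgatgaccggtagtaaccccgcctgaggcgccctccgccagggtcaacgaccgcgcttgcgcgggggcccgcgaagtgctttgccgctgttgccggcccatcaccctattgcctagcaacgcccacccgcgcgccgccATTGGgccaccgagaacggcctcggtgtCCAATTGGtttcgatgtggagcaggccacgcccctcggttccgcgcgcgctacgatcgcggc
Mlxipl promoter 1, chr5:135089640-135089889, plus strand: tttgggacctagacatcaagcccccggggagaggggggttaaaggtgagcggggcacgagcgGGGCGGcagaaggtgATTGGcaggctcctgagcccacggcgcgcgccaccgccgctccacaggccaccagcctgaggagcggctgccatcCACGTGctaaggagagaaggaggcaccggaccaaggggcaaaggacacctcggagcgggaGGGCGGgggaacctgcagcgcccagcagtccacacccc
Mlxipl promoter 2, chr5:135106641-135106890, plus strand: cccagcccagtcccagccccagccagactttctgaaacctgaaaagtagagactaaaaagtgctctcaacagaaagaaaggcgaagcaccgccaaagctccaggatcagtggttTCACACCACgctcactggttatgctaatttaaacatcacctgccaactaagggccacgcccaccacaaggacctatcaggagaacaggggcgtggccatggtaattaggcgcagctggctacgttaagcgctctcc

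The capitals in Slc13a5 promoter 1 mark a single GC box, and those in promoter 2 mark 3 GC boxes and a CCAAT box that directly follows the last of them without overlap. Fasn promoter 1 held 3 CCAAT boxes, 2 of which overlap. Mlxipl promoter 1 held the E-box, found in 1 of the 15 member promoters against 6.02% of all 32851 promoters of the same length. Mlxipl promoter 2 held the sterol element core, found in 1 of 15 against 1.05% of all. CCAAT occurred in 7 of 15 (33.8% of all), the GC box in 8 of 15 (32.7% of all), the aryl hydrocarbon receptor core in 1 of 15 (in Gpam, 4.1% of all) and the cAMP element in 0 of 15 (1.55% of all). These matches describe the letters of the windows and carry no statement on binding.

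Slc13a5, on chromosome 11 (72241990 to 72267295, GRCm38), was expressed at a low level with large differences between mice. In total RNA its level with GFP LNA was 2.94 CPM in mouse 1, 1.56 in mouse 2, 1.67 in mouse 3, 1.40 in mouse 8 and 0.689 in mouse 9. With SNORA73 LNA it was 0.805 CPM in mouse 4, 0.245 in mouse 6, 0.409 in mouse 11, 0.324 in mouse 12 and 4.95 in mouse 10. In 4 of the 5 SNORA73 LNA mice it was near or below the lowest control, whereas mouse 10 had the highest level of all 10 animals, so the groups overlapped. These levels rest on 7 to 98 counts a library.

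The 2 groups of 5 mice differed in Slc13a5 by a log2 fold change of -0.34 (SE 0.72) in total RNA. With mice 9 and 10 left out the difference was -2.14 (SE 0.38), a ratio of 0.227, from a mean of 1.89 ± 0.706 to 0.446 ± 0.249 CPM (SD, n = 4 mice each). Leaving out mouse 10 alone gave -1.95, and leaving out any 1 of the other mice gave values from -0.55 to -0.04. Over the 8 mice that remain without mice 9 and 10 the 2 ranges were separate, which held for 1 of the 10 members and for 7.39% of all 13795 genes. Slc13a5 was chosen on total RNA with these 2 mice set aside, so its separate ranges are a description and no independent result. With all 10 mice the ranges were separate for 0 of the 10 members and for 1.85% of genes.

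In polysome RNA of the same mice, Slc13a5 followed the total RNA pattern. With GFP LNA its level was 3.15 CPM in mouse 1, 2.00 in mouse 2, 1.69 in mouse 3, 2.19 in mouse 8 and 0.745 in mouse 9. With SNORA73 LNA it was 1.04 CPM in mouse 4, 0.242 in mouse 6, 0.430 in mouse 11, 0 in mouse 12 and 4.41 in mouse 10. The 0 in mouse 12 allows up to 3 counts in that library. Mouse 10 was again above every other animal, and mouse 9 was the lowest control. The polysome difference was -0.63 (SE 0.77) with all 10 mice, with an adjusted p of 0.761 by edgeR's quasi-likelihood test. Leaving out mice 9 and 10 gave -2.36 (SE 0.61), with an adjusted p of 0.137 by the same test, and did not pass the threshold. Neither p is an independent test, because Slc13a5 was chosen on total RNA of these same livers with these 2 mice set aside. With single mice left out the polysome difference ran from -2.15, without mouse 10, to -0.33. Across the 10 mice, log2 levels of Slc13a5 in the 2 RNAs had a Pearson r of 0.910, a description of libraries that come from the same livers.

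**Figure D1:**
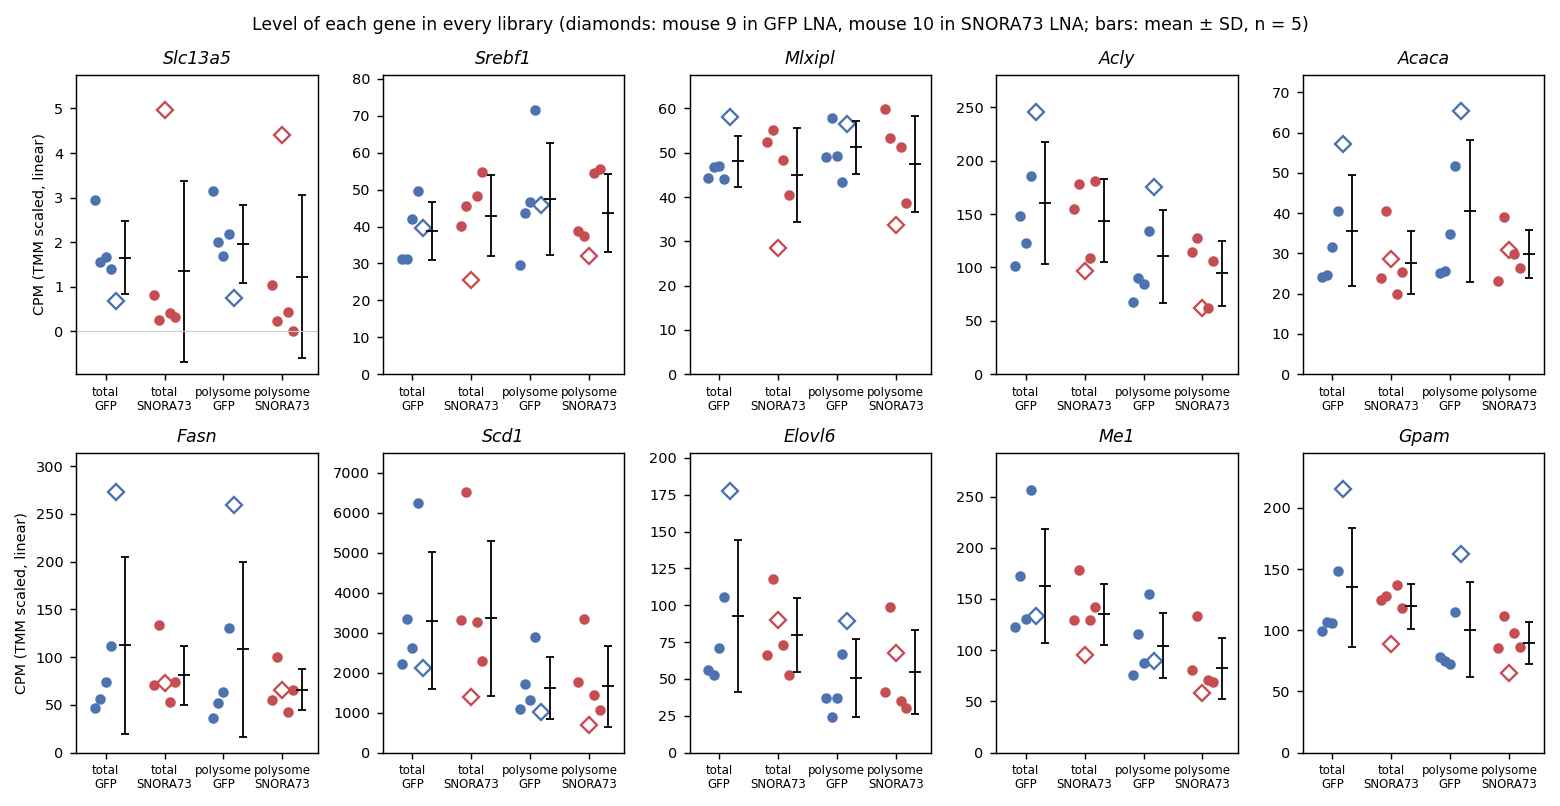
Level of each of the 10 genes in every library, as CPM on linear axes from 0, by RNA and LNA, with open diamonds for mouse 9 (GFP LNA) and mouse 10 (SNORA73 LNA) and bars for the mean ± SD of 5 mice. Mouse 10 has the highest Slc13a5 in both RNAs (4.95 and 4.41 CPM), and mouse 9 has the highest Fasn (272.7 CPM in total RNA).

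The regulators Srebf1 and Mlxipl did not separate the groups. Srebf1 was at 38.8 ± 7.74 CPM with GFP LNA and 42.9 ± 10.96 CPM with SNORA73 LNA in total RNA (SD, n = 5 mice each). Its log2 fold change was 0.14 (SE 0.19), and 0.29 (SE 0.16) without mice 9 and 10. Mlxipl was at 48.0 ± 5.80 and 44.95 ± 10.7 CPM (SD, n = 5 mice each). Its log2 fold change was -0.10 (SE 0.16), and 0.11 (SE 0.11) without mice 9 and 10. Neither gene had separate group ranges in either RNA. Counts of Srebf1 join all transcripts of the gene, so SREBP-1a and SREBP-1c cannot be told apart.

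Fasn, which encodes the synthase that makes palmitate, had the widest spread of the members among the GFP LNA mice. In total RNA with GFP LNA its level was 47.2 CPM in mouse 1, 56.2 in mouse 2, 73.4 in mouse 3, 111 in mouse 8 and 272.7 in mouse 9. With SNORA73 LNA it was 71.0 CPM in mouse 4, 134 in mouse 6, 53.3 in mouse 11, 73.5 in mouse 12 and 73.2 in mouse 10. Mouse 9 stood far above the other 9 animals, and the remaining ranges overlapped. The coefficient of variation of Fasn among the GFP LNA mice was 82.9%, higher than in 98.8% of genes, where the median gene had 15.0%. The log2 fold change of Fasn with SNORA73 LNA was -0.47 (SE 0.44) with all 10 mice and 0.21 (SE 0.30) without mice 9 and 10. Leaving out mouse 9 alone turned its sign, to 0.17.

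Acly encodes ATP citrate lyase, which splits citrate into acetyl-CoA and oxaloacetate. Its total RNA level was 101 to 246 CPM with GFP LNA and 96.7 to 181 CPM with SNORA73 LNA (5 mice each). Acaca encodes acetyl-CoA carboxylase 1, which makes malonyl-CoA, and was at 24.2 to 57.1 and 19.9 to 40.4 CPM. The highest value of both genes was that of mouse 9. The log2 fold change of Acly was -0.16 (SE 0.25), and that of Acaca was -0.36 (SE 0.25). Over the other 8 mice they were 0.16 (SE 0.20) and -0.14 (SE 0.22).

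Elovl6, which encodes the elongase of palmitate to stearate, was at 52.9 to 177 CPM with GFP LNA and at 52.7 to 118 CPM with SNORA73 LNA in total RNA. Scd1 encodes the desaturase that makes oleate and palmitoleate. Its level was 2227 CPM in mouse 1, 3330 in mouse 2, 2613 in mouse 3, 6238 in mouse 8 and 2106 in mouse 9 with GFP LNA. With SNORA73 LNA it was 3305 CPM in mouse 4, 6521 in mouse 6, 3269 in mouse 11, 2301 in mouse 12 and 1385 in mouse 10. In each group 1 mouse (8 and 6) was well above the rest for Scd1, and mouse 10 was the lowest. The log2 fold change was -0.21 (SE 0.33) for Elovl6 and 0.02 (SE 0.39) for Scd1, and 0.12 (SE 0.26) and 0.10 (SE 0.36) without mice 9 and 10.

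Me1 encodes the cytosolic malic enzyme, which supplies NADPH, and Gpam encodes the mitochondrial acyltransferase that starts glycerolipid synthesis. Me1 was at 122 to 256 CPM with GFP LNA and 95.5 to 178 CPM with SNORA73 LNA in total RNA. Gpam was at 99.8 to 215 and 88.8 to 137 CPM. The log2 fold change was -0.27 (SE 0.21) for Me1 and -0.18 (SE 0.21) for Gpam, and -0.23 (SE 0.21) and 0.14 (SE 0.13) without mice 9 and 10. Mouse 10 had the lowest level of both genes.

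Over the 10 members in total RNA, the median log2 fold change with SNORA73 LNA was -0.20, with 8 below 0, beside a median of 0.01 over all 13195 genes tested. Without mice 9 and 10, 3 of the 10 were below 0. By edgeR's quasi-likelihood test, 0 of the 9 members other than Slc13a5 passed a false discovery rate of 0.05, where 0.0303% of all genes did. The number was also 0 at an unadjusted p under 0.05, which 1141 of the 13195 genes had. It was 0 with limma-voom, which called 5 genes, and with DESeq2, which called 75. Over the 8 mice, 0.745% of all genes passed, 0.161% as lower and 0.584% as higher, and 0 of the other 9 members did. Slc13a5 was chosen on that contrast, so no call is given for it.

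In polysome RNA, 0 of the 10 members passed the edgeR test between the LNAs, where 0.0153% of all genes did. At an unadjusted p under 0.05, which 1755 of 13060 genes had, the number was also 0. It was 0 with limma-voom, which called 2 genes, and with DESeq2, which called 281. The median log2 fold change of the members was -0.20, with 8 below 0, beside -0.01 over all genes. The largest were those of Fasn, -0.72 (SE 0.44, adjusted p = 0.516), Slc13a5, given above, and Acaca, -0.44 (SE 0.25, adjusted p = 0.475). Without mice 9 and 10, Fasn was at -0.09 (SE 0.36, adjusted p = 0.936), 5 of the 10 were below 0, and 0 passed, where 0.242% of all genes did (0.211% higher and 0.0312% lower). For Me1 the 8-mouse value was -0.30 (SE 0.26, adjusted p = 0.655), close to the 10-mouse value of -0.35 (SE 0.24, adjusted p = 0.563).

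**Figure D2:**
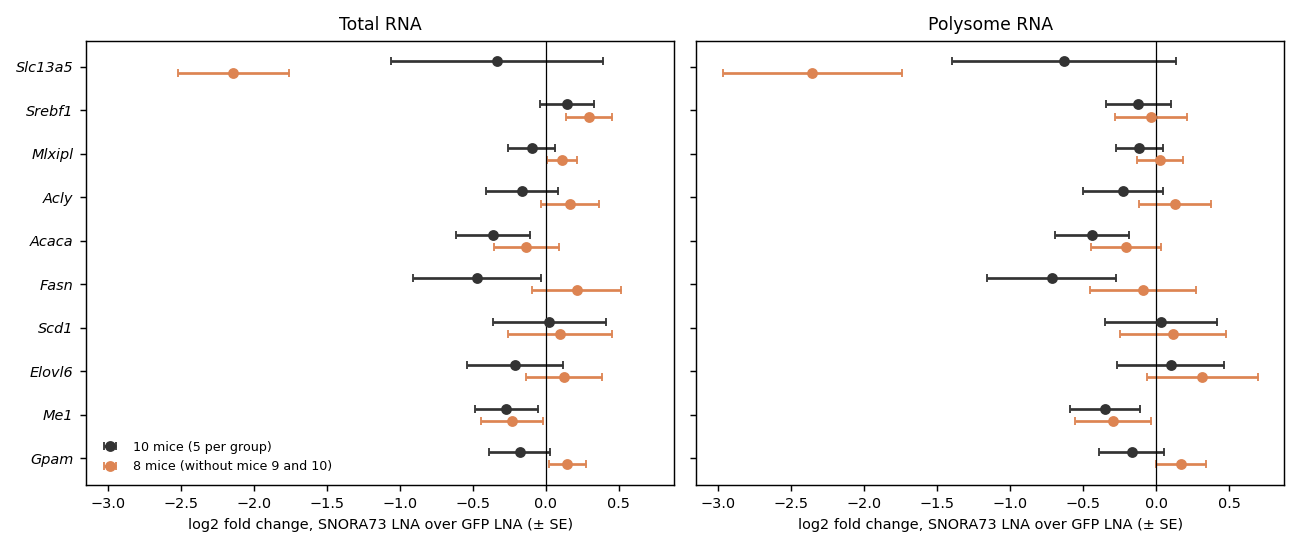
Fitted log2 fold change of each gene with SNORA73 LNA over GFP LNA in total RNA (left) and polysome RNA (right), with bars of 1 SE, over 10 mice (black) and over the 8 mice without mice 9 and 10 (orange). Slc13a5 moves from -0.34 to -2.14 in total RNA when the 2 mice are left out, whereas the values of the other members without them lie between -0.30 and 0.32.

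Single mice stood out across several members. Mouse 9 had the highest total RNA level of all 10 mice for 6 members: Mlxipl, Acly, Acaca, Fasn, Elovl6 and Gpam. Mouse 10 had the lowest for 6 members, namely Srebf1, Mlxipl, Acly, Scd1, Me1 and Gpam, and the highest for Slc13a5. In polysome RNA mouse 9 was highest for 4 members (Acly, Acaca, Fasn, Gpam) and mouse 10 lowest for 5 (Mlxipl, Acly, Scd1, Me1, Gpam). The same counts were not made over all genes, so these are not read as particular to the members. Mouse 9 also had the lowest summed hepatocyte markers of the total RNA libraries (36864 CPM). It had the highest cholangiocyte (34.8 CPM), Kupffer cell (191 CPM), sinusoidal endothelial (125 CPM) and stellate (339 CPM) markers of the GFP LNA mice in total RNA. Mouse 10 had the lowest hepatocyte markers of the SNORA73 LNA mice in total RNA (40137 CPM) and in polysome RNA (45971 CPM). It had the highest cholangiocyte markers (54.9 CPM) and the lowest stellate markers (222 CPM) of the SNORA73 LNA mice in total RNA, and the highest Kupffer cell markers of that group (193 CPM). Sinusoidal endothelial markers in total RNA summed to between 101 and 125 CPM with GFP LNA and between 117.5 and 136 CPM with SNORA73 LNA. The part of these marker levels in the members' values was not tested.

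**Figure D3:**
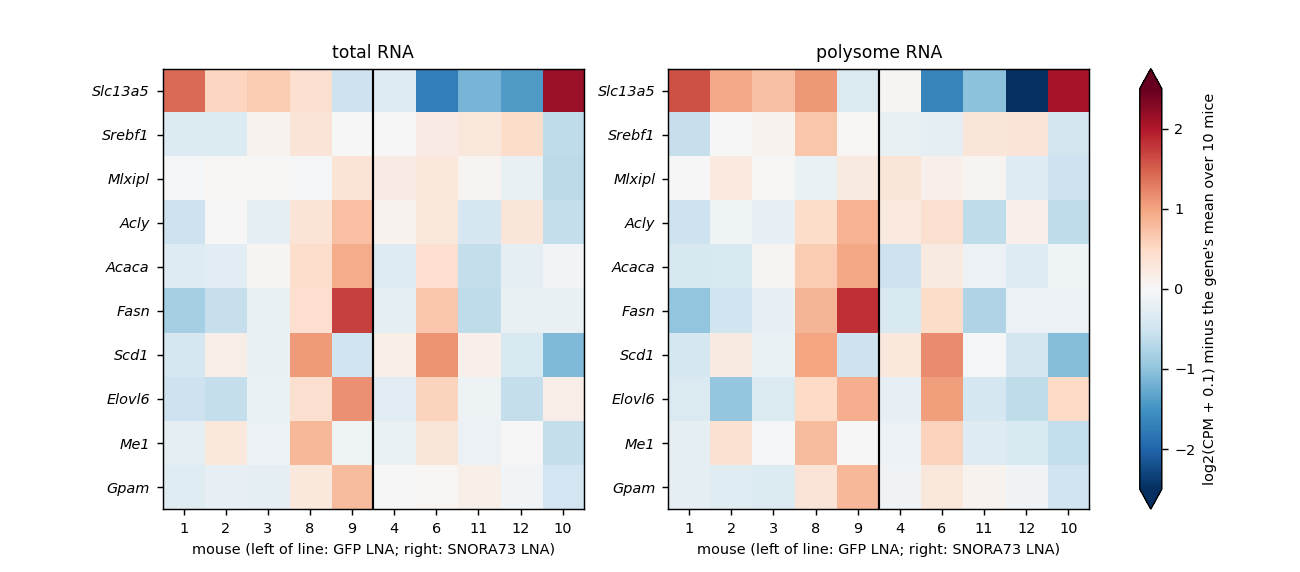
Log2(CPM + 0.1) of each gene in each mouse minus the mean of that gene over the 10 mice, in total RNA (left) and polysome RNA (right), with GFP LNA mice left of the line and SNORA73 LNA mice right of it. Mouse 9 is red for Fasn, Acaca, Acly, Elovl6 and Gpam, and mouse 10 is red for Slc13a5 and blue for Scd1 and Me1.

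Several enzymes varied together across mice. Over the 10 total RNA libraries, log2 levels of Fasn had a Pearson r of 0.944 with Acaca, 0.912 with Elovl6, 0.803 with Acly and 0.792 with Gpam. The r of Fasn was 0.172 with Scd1 and 0.261 with Me1. Without mice 9 and 10 it was 0.818 with Scd1, 0.685 with Me1 and 0.569 with Gpam. Slc13a5 had a negative r with all 9 other members in total RNA, from -0.81 with Srebf1 to -0.11 with Acaca. In polysome RNA its r with the other members ran from -0.37 to 0.0353. The genes most like Slc13a5 over the 10 total RNA libraries were Etnk1 (r = 0.943), Zfp322a (0.940), Tor3a (0.935), Ahsa2 (0.919) and Cstf2 (0.904), of 12559 candidates. In the 10 polysome libraries the same genes had r of 0.785, 0.810, 0.802, 0.274 and 0.594. These correlations are over libraries that share the LNA groups and mouse 10, and they describe likeness alone.

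Polysome RNA was compared with total RNA of the same livers to ask how far each mRNA was represented among translating ribosomes. The ratio is relative to all other mRNAs in the library, since both RNAs are scaled to CPM. Scd1 had the lowest ratio of polysome to total CPM among the members. With GFP LNA it was 0.487 in mouse 1, 0.517 in mouse 2, 0.498 in mouse 3, 0.465 in mouse 8 and 0.486 in mouse 9. With SNORA73 LNA it was 0.530 in mouse 4, 0.512 in mouse 6, 0.438 in mouse 11, 0.464 in mouse 12 and 0.501 in mouse 10. All 10 ratios of Scd1 lay below 1 and within a narrow band, although the total RNA level of Scd1 ranged from 1385 to 6521 CPM.

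Elovl6, Me1, Acly and Gpam were likewise lower in polysome RNA in 10 of 10 mice. Among 13795 genes, their mean log2 polysome to total differences with GFP LNA lay at percentiles 11.6, 18.6, 21 and 26.4. With SNORA73 LNA the percentiles were 17.2, 13.6, 17.6 and 26.3, so many genes outside the members were lower still. The mean ratio over 10 mice was 0.604 ± 0.123 for Elovl6, 0.624 ± 0.0738 for Me1, 0.665 ± 0.0602 for Acly and 0.744 ± 0.0558 for Gpam (SD). Fasn was at 0.878 ± 0.122, below 1 in 9 of 10 mice. Slc13a5, Srebf1, Mlxipl and Acaca had means of 1.02 ± 0.410, 1.12 ± 0.197, 1.07 ± 0.09996 and 1.11 ± 0.163 (SD, 10 mice each). The ratio of Acaca was above 1 in 8 of 10 mice, and those of Srebf1 and Slc13a5 in 7 of 10.

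**Figure D4:**
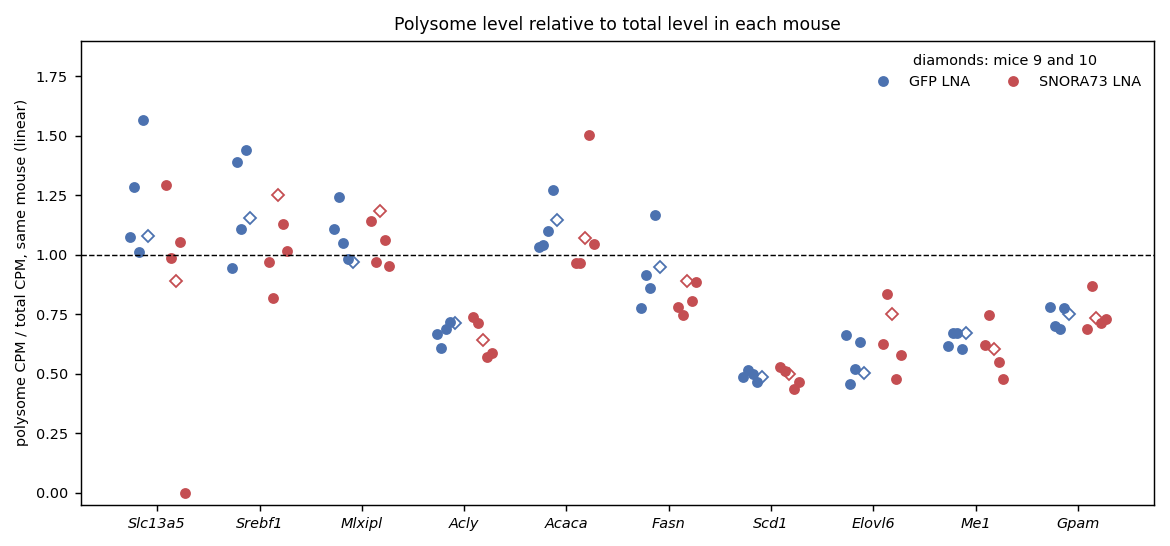
Polysome CPM divided by total CPM of the same mouse for each gene, on a linear axis, with 1 point a mouse, blue for GFP LNA and red for SNORA73 LNA, open diamonds for mice 9 and 10 and a dashed line at 1. All 10 points of Acly, Scd1, Elovl6, Me1 and Gpam lie below the line, and those of Scd1 lie between 0.438 and 0.530.

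With GFP LNA, edgeR's quasi-likelihood test called 2 of the 10 members lower in polysome than in total RNA, where 24% of all 13283 genes were lower, 24.7% were higher and 48.7% were called in either direction. These were Scd1, with a log2 fold change of -1.05 (SE 0.35, adjusted p = 0.0263), and Me1, with -0.65 (SE 0.24, adjusted p = 0.039). With the mouse as a block, which the shared animals allow, 6 of the 10 were called (63% of genes), with 5 lower (30.7% of genes) and 1 higher (32.3% of genes). The 5 lower were Scd1 at -1.04 (SE 0.06, adjusted p = 2.61e-08), Elovl6 at -0.87 (SE 0.08, adjusted p = 1.82e-06), Me1 at -0.64 (SE 0.06, adjusted p = 1.89e-06), Acly at -0.57 (SE 0.06, adjusted p = 6.46e-06) and Gpam at -0.45 (SE 0.06, adjusted p = 2.85e-05). The higher one was Srebf1 at 0.25 (SE 0.09, adjusted p = 0.0287).

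With SNORA73 LNA, 1 member was called lower in polysome RNA (Me1, -0.71, SE 0.23, adjusted p = 0.0292), where 15.8% of 13063 genes were lower, 17.2% were higher and 33% were called in either direction. With the mouse as a block, 6 were lower (22.3% of genes) and 0 higher (24% of genes), against 46.2% of genes in either direction. They were Scd1 at -1.03 (SE 0.09, adjusted p = 2.61e-05), Me1 at -0.75 (SE 0.11, adjusted p = 0.000365), Elovl6 at -0.64 (SE 0.12, adjusted p = 0.00202), Acly at -0.62 (SE 0.10, adjusted p = 0.000527), Gpam at -0.42 (SE 0.09, adjusted p = 0.00372) and Fasn at -0.28 (SE 0.09, adjusted p = 0.0272). Fasn and Srebf1 were called in 1 LNA group alone, and that difference between groups is the interaction given next. Without mice 9 and 10, and with the block, Fasn (adjusted p = 0.0529) and Srebf1 (adjusted p = 0.0534) did not pass the same edgeR test, and the other 5 enzymes did in both groups.

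The change of the polysome to total difference with SNORA73 LNA, given by an RNA by LNA interaction term in 1 fit of 20 libraries, passed for 0 of the 10 members by edgeR, where 0.00725% of genes passed. The number was also 0 at an unadjusted p under 0.05, which 401 of 13795 genes had. It was 0 with limma-voom (0 genes called), with DESeq2 (7 genes) and with the mouse as a block (1 gene). The blocked interaction was -0.18 (SE 0.12) for Fasn and -0.22 (SE 0.14) for Srebf1 on the log2 scale. It was -0.01 for Scd1 (approximate 95% interval -0.18 to 0.17) and -0.41 for Slc13a5 (approximate 95% interval -1.19 to 0.37). Slc13a5 was chosen on total RNA values that enter this term, so its value is a description and its part in the counts is no independent test.

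The 73 other genes of the pathway and of its regulation were followed as 7 lists. Between the LNAs, 0 of the 68 list genes tested in total RNA and 0 of the 67 tested in polysome RNA passed the edgeR test. Of all genes, 0.0303% and 0.0153% did. By the same test 2 and 4 list genes had an unadjusted p under 0.05, as did 1141 of 13195 and 1755 of 13060 genes. The median log2 fold change in total RNA was 0.00 for the 13 regulators of lipogenesis, -0.06 for the 13 genes of glucose entry, citrate and NADPH supply, -0.15 for 12 other fatty acid enzymes and -0.08 for 9 genes of glycerolipid assembly. It was -0.08 for 9 genes of the fasting response and 0.06 for 10 clock genes. Of the other Slc13 transporters, Slc13a2 had a log2 fold change of 0.73 (SE 0.36) and Slc13a3 of -0.09 (SE 0.28), and Slc13a1 and Slc13a4 were too low to be tested.

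Between polysome and total RNA with GFP LNA and the mouse as a block, 23 of 69 list genes tested were higher and 23 lower, where 32.3% and 30.7% of all genes were. The fatty acid elongases Elovl2 (-1.30) and Elovl5 (-1.09) were lower, as Elovl6 was, and so were the glucose transporter gene Slc2a2 (-1.38) and Mbtps2, which encodes a protease that releases SREBP (-1.23). The acyl-CoA synthetase gene Acsl1 (-0.74) was also lower. Higher in polysome RNA were Pgls of the pentose phosphate pathway (1.33), Scap, the SREBP escort (0.76), Dgat1 of triglyceride synthesis (0.75), Nr1h3, which encodes the sterol receptor LXR alpha (0.73), and Usf1 (0.69). These are log2 fold changes past an edgeR false discovery rate of 0.05. The 7 fasting response genes that were lower included Ppargc1a (-0.92) and G6pc (-0.70), and 1 of that list, Angptl4, was higher (0.25, a gene named after its value was seen). Of 10 clock genes tested, 3 were lower, among them Nr1d2 (-1.27), and 2 higher, among them Dbp (0.80). With SNORA73 LNA and the block, 18 of 67 list genes were higher and 23 lower, where 24% and 22.3% of all genes were. Without the block the numbers were 16 higher and 12 lower with GFP LNA, and 6 higher and 11 lower with SNORA73 LNA.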

How the data were processed

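Liver RNA of 10 mice was sequenced as polyA-selected, paired reads of 100 bases, once as total RNA and once as polysome RNA. The authors trimmed reads with fastp, removed unwanted reads with Bowtie2 and estimated transcript abundance with kallisto on GRCm38. They deposited 1 table of estimated counts per gene (expected counts, not normalized), which here were rounded to whole numbers. In no library did genes lacking a symbol take more than 2.99% of counts.

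Symbols were matched through Ensembl identifiers for 51903 of 53028 genes. Genes with CPM above 0.5 in at least 4 libraries of a fit were kept, scaled by TMM and tested with edgeR 4.0.16 (glmQLFit, glmQLFTest, R 4.3.3), with Benjamini-Hochberg adjustment over all genes tested and calls at a false discovery rate under 0.05. limma 3.58.1 (voom) and DESeq2 1.42.0 were alternatives, besides other scalings, no filter, 1 fit of all libraries, each mouse left out, and the mouse as a block. Levels are CPM, and log2 levels are of CPM plus 0.1. Per-length levels were not computed, so levels are not compared between genes. Standard errors come from the fits and include the spread between mice. Intervals apply a normal quantile to the standard error and ignore the few residual degrees of freedom, so they are narrower than the test would give.

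Named genes are the 10 members, the 5 genes most correlated with Slc13a5, and up to 4 called genes of a list with the largest changes. The other Slc13 genes and the genes of the other observations stand outside this rule and were named with their values known. The members and lists were chosen with earlier results of these data known. The study left out 1 mouse a group after a principal component analysis, without naming it. Mice 9 and 10 were taken as these because, of 25 possible pairs, their removal gave fold changes nearest to those of the study.

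Same-numbered libraries come from the same mouse. Deviations from the group means in the 2 RNAs had a correlation of 0.126 to 0.579 in each mouse, over 0.1 in all 10, so the mouse was used as a block. In mouse 6 its own correlation (0.126) was below its highest with another mouse (0.246). No 2 libraries of an RNA were identical. On simulated counts with known changes, the fit between the LNAs recovered 71.8% of changed genes for total RNA (13026 genes). It recovered 45.9% for polysome RNA (12843 genes). For polysome against total RNA it recovered 65.8% with GFP LNA (13059 genes) and 55.1% with SNORA73 LNA (12820 genes). For the interaction it recovered 35.5% (13594 genes). The planted changes were larger than most member differences between the LNAs. The simulation drew the 2 RNAs of a mouse independently and used the fit without the block. These shares therefore do not describe smaller changes or the blocked fits.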

Additional observations from a re-analysis of the deposited data

Results flagged for a closer look

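Of 40 groups of 5 libraries (10 members, 2 RNAs, 2 LNAs), 5 held a library far from the other 4. The groups share mice and several members vary together, so no chance rate is set beside this number. Slc13a5 in mouse 10 of the SNORA73 LNA group was at 4.95 CPM in total RNA, with 88.1% of the group's range between it and the next mouse, and at 4.41 CPM in polysome RNA (76.4%). In mouse 9 of the GFP LNA group, Mlxipl was at 58.1 CPM (80.1% of the range) and Fasn at 272.7 CPM (71.5%) in total RNA. Fasn in mouse 6 of the SNORA73 LNA group was at 134 CPM in total RNA (75.0%). The interaction of RNA and LNA passed for 0 of the 10 members by edgeR.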

How the results depend on the processing

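Several member values between the LNAs moved without mice 9 and 10, and the cause was not tested, whereas those of Me1 and Scd1 moved little. In total RNA the number of genes called, 4 by edgeR, was 97 without both mice, 75 with DESeq2, 13 without a filter and 2 with library totals, and 1 to 59 with each mouse left out (59 without mouse 9, and 1 or 2 without each other mouse). Of the 9 members other than Slc13a5, 0 were called in each of these settings. No call is given for Slc13a5, because it was chosen on this contrast. Total RNA values turned sign without mouse 9 for Fasn (0.17), Elovl6 (0.16), Acly (0.040) and Gpam (0.047), without mouse 10 for Mlxipl (0.027), and ranged from -0.37 to 0.38 for Scd1 with single mice left out. In polysome RNA the number of genes called, 2, was 31 without both mice, 281 with DESeq2, 317 in 1 fit of all libraries, 72 without a filter and 0 with library totals, and 0 to 17 with each mouse left out (17 without mouse 9, 5 without mouse 6, 7 without mouse 11 or 12, 4 without mouse 10, 0 without mouse 1, 2, 3 or 4). With library totals the median over all genes shifted to -0.14 in total RNA and -0.17 in polysome RNA, and polysome values turned sign for Scd1 (-0.088) and Elovl6 (-0.022). Scd1 was at -0.053 with limma-voom. Without both mice, polysome values turned sign for Mlxipl (0.026), Acly (0.13) and Gpam (0.17). With single mice left out, signs turned for Scd1 (from -0.38 to 0.36), Elovl6 (-0.22 to 0.40), Acly (-0.36 to 0.011), Gpam (-0.26 to 0.074) and Srebf1 (-0.25 to 0.074). For polysome against total RNA with GFP LNA, the 2 members called became 6 with the replicate block, 5 with the block without both mice (a setting chosen after seeing the data), 1 with library totals or 1 fit of all libraries, and 0 to 2 with a mouse left out (0 without mouse 1, 2 or 3). With SNORA73 LNA, the 1 called became 6 with the block, 5 with the block without both mice, 3 with DESeq2 or without a filter, 2 without mouse 10, 0 with library totals, and 0 to 4 with a mouse left out (4 without mouse 6, 0 without mouse 4, 11 or 12). The genes called there, 4308, were 2736 to 4094 with a mouse left out, lowest without mouse 12. The Srebf1 value there turned sign without a filter (-0.017), without mouse 10 (-0.024, and -0.039 with the block) and without mouse 11 (-0.024), and ran up to 0.068 with a mouse left out. For the interaction, 1 gene was called, with 0 by limma-voom, 7 by DESeq2, 0 without both mice with or without the block, and 1 to 1 with each mouse left out. Slc13a5 missed the filter with SNORA73 LNA without mouse 10, so it has no polysome to total value there. The Slc13a5 counts, 0 to 99 a library, limit its precision. The replicate block changed no other call of a member.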

Other observations

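Mouse 9 and mouse 10 also differed in genes outside the 10 members, chosen here after their values were seen and given with no test. In total RNA, mouse 9 had the highest level of the 10 mice for Thrsp, a lipogenic cofactor gene (420 CPM, against a median of 56.5 in the GFP LNA group), Lpin1, a phosphatidate phosphatase gene (314 against 85.6), Insig1 (719.8 against 292) and Aacs (52.0 against 11.5). It had the lowest level for the gluconeogenic genes Pck1 (624 against 880.1) and G6pc (72.9 against 201), for Pdk4 (1.74 against 6.23), and for Cyp4a14 (11.6 against 166). The fasting response list was not lower as a whole in mouse 9: Ppargc1a was the highest of the 10 mice (10.5 against 7.25), and Fgf21 and Igfbp1 ranked 9 and 8 from the lowest.

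Several clock genes of mouse 9 stood apart too. Arntl was at 1.45 CPM (median of the GFP LNA group 9.47), Npas2 at 0.145 (2.82) and Cry1 at 2.90 (11.4), each the lowest of the 10 mice, whereas Per3 was at 4.89 (0.709) and Nr1d2 at 64.1 (32.4), each the highest. Dbp was at 23.05 CPM in mouse 9 against a median of 1.98, but a SNORA73 LNA mouse reached 23.14 CPM. Nr1d1 (26.0 CPM, median 22.8) and Per1 (2.86, median 2.06) of mouse 9 ranked 6 and 7 of the 10 mice from the lowest. Mouse 10 had the lowest level of the 10 mice for Lpin1 (18.2 CPM, against a median of 125 in the SNORA73 LNA group), Lpin2 (38.9 against 122) and Slc2a2 (61.7 against 153), and the highest Arntl (13.5 against 9.44).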
